A study of Mus musculus with 9 samples.

Results

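The genes described here are imprinted growth regulators, a list of 10 mouse genes: Igf2, Igf2r, Grb10, Cdkn1c, Plagl1, Dlk1, Meg3, Mest, Peg3 and H19. Every probe set annotated with one of these symbols and no other was taken, which gave 30 of the 45101 probe sets on the array, for 9 of the 10 genes. H19 had no probe set of its own, because the probe set that names it also names Mir675, a microRNA gene that RefSeq places inside H19. Its values are given separately and do not enter the counts. The probe set that names both Airn and Igf2r is also left out of the counts. It read 2.17 on the log2 scale, the lowest value of the table, on all 9 arrays.

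Expression was measured on 9 Affymetrix arrays, with 3 arrays in each of 3 groups. All 3 groups came from the Ainv15 line of mouse embryonic stem (ES) cells. It carries V5-tagged Cdx2 under doxycycline control, so the uninduced groups hold the transgene as well. Cdx2 and FGF cultures were collected at day 5, after retinoic acid (RA, 1 µM) and a hedgehog agonist (0.5 µM) from day 2, a doxycycline pulse on day 3 (2 µg/ml, lasting 6 to 8 hours) and basic FGF (100 ng/ml). Motor neuron cultures were collected at day 5 and received retinoic acid and hedgehog agonist from day 2, without doxycycline or FGF. ES cells were untreated, labelled day 0, and had been grown over mitomycin-C-treated fibroblasts. A lower dose of both agents, 100 nM, is also described beside FGF, without naming the cultures it was used on. No group had Cdx2 or FGF alone, and the 2 agents cannot be told apart.

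Imprinted genes are expressed from 1 parental copy, and many of them set the growth of the embryo and placenta. Igf2 and its clearance receptor Igf2r are the textbook pair with opposite effects on growth, with Igf2 active on the paternal copy and Igf2r on the maternal copy in most mouse tissues. The group also holds brakes on the cell cycle and on growth factor signals (Cdkn1c, Grb10), a zinc finger factor that regulates other imprinted genes (Plagl1), and genes of the Dlk1 and Meg3 cluster. Expression arrays of this kind do not separate the parental copies, so imprinting itself was not measured.

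Cdx2 read 8.27, 8.99 and 8.59 in Cdx2 and FGF cultures, against 2.17, 2.17 and 2.24 in motor neuron cultures and 2.17 on each ES array. The ES marker genes, among them Pou5f1 and Nanog, had means over 4 for 10 of 10 genes in ES cells, and for 0 of 10 in either kind of day 5 culture. Motor neuron and ventral progenitor markers were over 4 for 6 of 8 genes in Cdx2 and FGF cultures, 7 in motor neuron cultures and 2 in ES cells, while Chat, which makes acetylcholine, lay under 2.5 on all 9 arrays. By the calls defined below, 5 of the 7 tested were lower in Cdx2 and FGF cultures than in motor neuron cultures, and 0 were higher. Their median log2 difference was -2.73, and the shares of all genes were 8.55% lower and 11.1% higher. The ES arrays also stood apart in some control probe sets. The 3′ minus 5′ difference of the transferrin receptor controls was -1.74 to -1.43 in Cdx2 and FGF cultures, -1.57 to -1.39 in motor neuron cultures and 5.59 to 6.86 in ES cells. The Gapdh controls differed less, by 0.51 to 0.54, 0.59 to 0.65 and 0.63 to 1.05 in the same order of groups, and overlapped between motor neuron and ES arrays. The Actb controls differed by -0.097 to -0.011, -0.049 to -0.026 and 1.87 to 2.30. The 18S control itself read 15.32 to 15.42, 15.45 to 15.51 and 5.86 to 6.60. The part of these control differences in the folds against ES cells was not tested. The median SD within a group was 0.121, 0.156 and 0.402 in the same order of groups. Whether the 3 arrays of a group came from separate cultures is not stated. The p-values therefore reflect the spread between arrays alone, which may be technical.

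Values below are log2 expression levels, and a difference is the first-named group minus the second, from a limma fit to all 9 arrays. A probe set was tested if it exceeded 4 on at least 3 arrays. A call needed both an adjusted p under 0.05 and a log2 difference of 1 or more in size. Of the 30 probe sets, 22 were tested, from all 9 genes. The other 8 were dim, and comprised 4 of the 11 for Meg3, 2 of the 5 for Peg3 and 2 of the 3 for Plagl1. A gene is described first by the probe set with its highest mean. Where an array of the dimmer group lay under 4, values under 4 were raised to 4 and the fold is written as "at least".

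Across the set, 9 of the 22 tested probe sets of these genes were higher in Cdx2 and FGF cultures than in motor neuron cultures, against 10.9% of all 21523 probe sets tested. The 9 came from Igf2, Igf2r, Peg3, Mest and Meg3, and 3 were lower, from Dlk1 and Meg3, against 8.57% of all. Of the 3 lower ones, 1442724_at and 1429256_at were tested only through the motor neuron arrays. The median log2 difference was 1.01 over the 22 and 0.04 over all probe sets tested. In motor neuron cultures against ES cells, 13 were higher and 2 lower, against 31.9% and 27.9% of all, and the medians were 2.76 and 0.10. By 1 leading probe set a gene, 3 of the 9 genes were higher and 2 lower there, against 25.9% and 30.7% of all genes. The medians were then 0.19 and -0.08. In Cdx2 and FGF cultures against ES cells, 12 probe sets were higher and 1 lower, against 31.4% and 24.7%. By leading probe set, 5 genes were higher and 1 lower, against 25.4% and 27.2% of all genes. Meg3 gave 7 of the 22 probe sets, and probe sets of 1 gene are not separate support. In their calls against ES cells, the probe sets of Igf2, Igf2r, Grb10, Peg3 and Meg3 differed among themselves. Igf2 1415931_at, Grb10 1425457_a_at, Meg3 1428764_at, Meg3 1429256_at and Dlk1 1442724_at were under 4 on all ES arrays and were tested through day 5 arrays alone. Over 4 on all motor neuron arrays, they could only come out higher in motor neuron cultures than in ES cells. All of them are among the 13 probe sets called higher there. For the first 3 named, the same holds for the direction in Cdx2 and FGF cultures against ES cells. These 3 comparisons share arrays pairwise and are not independent of each other.

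Among the 22 tested probe sets of these genes, the leading one of Igf2 had the largest rise in Cdx2 and FGF cultures over motor neuron cultures. Igf2 encodes insulin-like growth factor 2, a growth factor of the embryo. Its leading probe set, 1448152_at, read 14.83, 14.78 and 14.85 in Cdx2 and FGF cultures, 9.01, 9.27 and 8.79 in motor neuron cultures, against 10.55, 8.19 and 9.56 in ES cells. The Cdx2 and FGF arrays lay above the other 6 arrays, while the ES arrays overlapped the motor neuron arrays. Igf2 was 55.6-fold higher in Cdx2 and FGF cultures than in motor neuron cultures (log2 difference 5.80, SE 0.48, adjusted p = 2.43e-05). Against ES cells it was 41.9-fold higher (log2 difference 5.39, adjusted p = 7.27e-06), and the log2 difference was 4.77 without ES replicate 2. Motor neuron cultures and ES cells did not pass the test (log2 difference -0.41, adjusted p = 0.457), although this was a call of lower without ES replicate 2 (-1.03, adjusted p = 0.00861).

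The other Igf2 probe set, 1415931_at, gave the same high level in Cdx2 and FGF cultures, with 14.78, 14.77 and 14.79. It read 9.63, 10.05 and 9.39 in motor neuron cultures, but 2.51, 2.24 and 3.25 in ES cells. This probe set therefore placed ES cells below motor neuron cultures, with a rise of at least 51.7-fold in motor neuron cultures (log2 difference 7.02, adjusted p = 3.58e-08). Between the 2 kinds of day 5 culture it was called in the same direction as the leading probe set, at 34-fold higher (log2 difference 5.09, SE 0.28, adjusted p = 1.93e-06). The disagreement was thus limited to the ES arrays, which are also those with the large 3′ minus 5′ control differences. Where each probe set lies along its transcript is not used here, and the part of those differences was not tested.

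One window upstream of an Igf2 start site is shown because it held a letter match to a caudal homeobox motif. Cdx2 was induced in cultures that also received FGF, and the part of either in the Igf2 rise was not tested. Of 4 RefSeq windows for Igf2, each the 250 bases before a start site, this was the one with a match to TTTATGG, searched on both strands. The match is in capitals, and the window lies at chr7:142661272-142661521 of GRCm38.p6, on the minus strand.
Igf2 upstream window: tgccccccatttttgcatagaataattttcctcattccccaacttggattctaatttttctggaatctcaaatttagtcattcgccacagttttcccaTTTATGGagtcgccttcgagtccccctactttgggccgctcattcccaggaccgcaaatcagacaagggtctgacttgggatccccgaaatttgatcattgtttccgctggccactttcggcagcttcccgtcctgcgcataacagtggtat
The motif was found in 2.43% of all 32851 windows of the same length and in 1 of the 15 windows of these genes. A second caudal form, TTTATTG, was in 4.2% of all windows and in 0 of the 15. A match of letters is a description and does not show binding, and no match says only that these letters are not in the window.

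**Figure D1:**
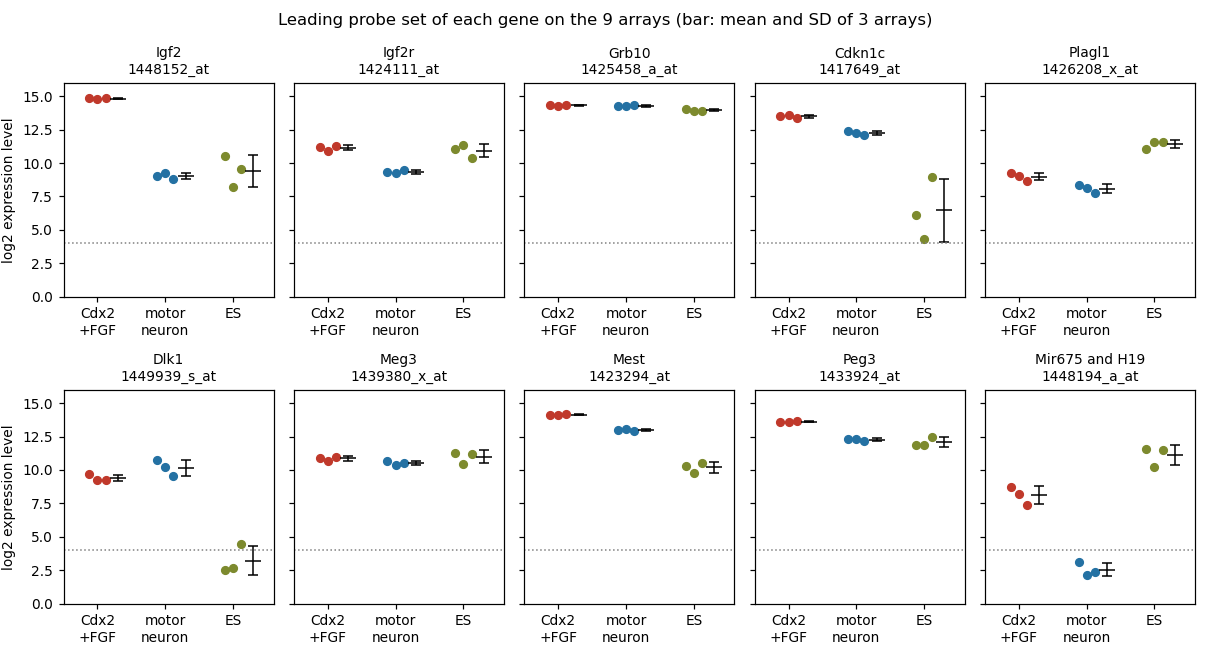
Log2 expression level (vertical axis) of the leading probe set of 9 genes, and of the probe set shared by Mir675 and H19, on the 9 arrays. Points are single arrays, the bar is the mean with the SD of 3 arrays, and the dotted line marks the filter at 4. Igf2 lies at 14.78 to 14.85 in Cdx2 and FGF cultures, while the Mir675 and H19 probe set lies at 2.17 to 3.09 in motor neuron cultures.

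Igf2r, the receptor that takes up IGF2 for breakdown, was higher in Cdx2 and FGF cultures than in motor neuron cultures on both of its probe sets. The leading probe set, 1424111_at, read 11.24, 10.94 and 11.30 in Cdx2 and FGF cultures, 9.33, 9.22 and 9.48 in motor neuron cultures, against 11.03, 11.36 and 10.37 in ES cells. Motor neuron cultures were the low group, and the other 2 groups overlapped. The rise over motor neuron cultures was 3.52-fold (log2 difference 1.82, SE 0.24, adjusted p = 0.000475), and motor neuron cultures lay below ES cells (log2 difference -1.58, adjusted p = 0.000241). On the second probe set, 1424112_at, the levels were 9.90, 9.61 and 9.44 in Cdx2 and FGF cultures, 6.76, 7.15 and 6.86 in motor neuron cultures, against 2.39, 5.00 and 3.75 in ES cells. It was 6.62-fold higher in Cdx2 and FGF cultures than in motor neuron cultures (log2 difference 2.73, adjusted p = 0.00532). Against ES cells it was called higher in motor neuron cultures (log2 difference 3.21, adjusted p = 0.000525), the opposite of the leading probe set. That difference was 2.55 without ES replicate 1 and 3.85 without ES replicate 2. Cdx2 and FGF cultures lay at least 39.9-fold above ES cells on it (log2 difference 5.94, adjusted p = 9.71e-06, or 5.28 and 6.58 without those arrays). Airn, a non-coding transcript that overlaps Igf2r and silences the paternal copy, had a probe set of its own. It averaged 6.26 ± 0.27 in Cdx2 and FGF cultures, 2.72 ± 0.06 in motor neuron cultures and 3.01 ± 0.43 in ES cells (SD, n = 3 each).

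Grb10, an adaptor that dampens insulin and IGF receptor signals, did not pass the test between the 2 kinds of day 5 culture on any of its 3 probe sets. Its leading probe set, 1425458_a_at, read 14.33, 14.26 and 14.36 in Cdx2 and FGF cultures, 14.25, 14.24 and 14.37 in motor neuron cultures, against 14.03, 13.93 and 13.92 in ES cells. All 9 arrays lay between 13.92 and 14.37. The difference between motor neuron cultures and ES cells was 0.33 (adjusted p = 0.00114), under the size needed for a call. The 2 other probe sets read over 12 on all day 5 arrays and at most 4.15 in ES cells. On 1425457_a_at the levels were 14.17, 14.17 and 14.15 in Cdx2 and FGF cultures, 13.77, 13.86 and 13.90 in motor neuron cultures, against 2.68, 3.09 and 2.66 in ES cells. That made a rise of at least 918-fold in motor neuron cultures over ES cells (log2 difference 11.03, SE 0.15, adjusted p = 5.94e-10). On 1430164_a_at the rise was at least 430-fold (log2 difference 9.60, adjusted p = 3.76e-08). Whether Grb10 was near the floor or near the top of the scale in ES cells thus depended on the probe set.

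Cdkn1c encodes p57, an inhibitor of cyclin-dependent kinases that favours exit from the cell cycle. It read 13.53, 13.58 and 13.39 in Cdx2 and FGF cultures, 12.42, 12.25 and 12.13 in motor neuron cultures, against 6.12, 4.32 and 8.95 in ES cells. The 3 groups did not overlap, and the ES arrays were spread over more than 4 units. Cdkn1c was 131-fold higher in Cdx2 and FGF cultures than in ES cells (log2 difference 7.04, SE 0.91, adjusted p = 9.35e-05). Motor neuron cultures had a 55.8-fold higher level than ES cells (log2 difference 5.80, adjusted p = 0.000298). Without ES replicate 3 the log2 differences from ES cells were 8.28 in Cdx2 and FGF cultures and 7.04 in motor neuron cultures, and without ES replicate 2 they were 5.96 and 4.73. The difference between Cdx2 and FGF cultures and motor neuron cultures was 1.23 and missed the threshold (SE 0.91, adjusted p = 0.369). With only those 6 arrays in the fit, it was called at the same size (adjusted p = 0.000374), since the spread of the ES arrays no longer entered. It also passed without ES replicate 3 (adjusted p = 0.0412), and over all alternatives the adjusted p ran from 0.000374 to 0.735.

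The feeder fibroblasts are another possible source of RNA on the ES arrays. The summed log2 level of 13 fibroblast markers ran over 11.41 to 11.63 in Cdx2 and FGF cultures and 7.76 to 7.97 in motor neuron cultures. On ES arrays 1, 2 and 3 it was 10.54, 11.87 and 13.15. Means were over 4 for 7 of the 13 markers in Cdx2 and FGF cultures, 1 in motor neuron cultures and 10 in ES cells, where Lum and Fap lay under 2.5. ES replicate 3 was the highest ES array for these markers and, by leading probe set, for 4 of the 9 genes, namely Cdkn1c, Dlk1, Mest and Peg3. Igf2, Grb10 and Meg3 were highest on ES replicate 1, and Igf2r and Plagl1 on ES replicate 2. The second Igf2 probe set, under 4 on all ES arrays, was highest on ES replicate 3. The part of feeder RNA in the ES levels was not tested.

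Plagl1, a zinc finger transcription factor of an imprinted gene network, was the member whose leading probe set was lower in both kinds of day 5 culture than in ES cells. Probe set 1426208_x_at read 9.25, 9.04 and 8.68 in Cdx2 and FGF cultures, 8.39, 8.15 and 7.75 in motor neuron cultures, against 11.05, 11.60 and 11.59 in ES cells. All ES arrays lay above all day 5 arrays. Plagl1 was 5.37-fold lower in Cdx2 and FGF cultures than in ES cells (log2 difference -2.42, SE 0.24, adjusted p = 1.75e-05). Motor neuron cultures had a 9.94-fold lower level than ES cells (log2 difference -3.31, adjusted p = 1.84e-06). Between the day 5 cultures the difference was 0.89 (adjusted p = 0.0232), short of the size for a call. It passed without motor neuron replicate 1 (1.03) and without Cdx2 and FGF replicate 3 (1.04), and over all alternatives its adjusted p ran from 0.00121 to 0.0946. The other 2 Plagl1 probe sets stayed under 4 on all 9 arrays. The called probe set is of the x_at kind, whose probes can match more than 1 transcript.

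Dlk1 and Meg3 lie in 1 imprinted cluster on chromosome 12, Dlk1 being expressed from the paternal copy and the non-coding RNA Meg3 from the maternal copy. Dlk1 encodes a membrane protein related to Notch ligands. On its leading probe set, 1449939_s_at, Dlk1 read 9.70, 9.26 and 9.28 in Cdx2 and FGF cultures, 10.74, 10.19 and 9.54 in motor neuron cultures, against 2.51, 2.70 and 4.47 in ES cells. Both kinds of day 5 culture lay far above ES cells and overlapped each other. The rise over ES cells was at least 38.3-fold in Cdx2 and FGF cultures (log2 difference 6.19, SE 0.52, adjusted p = 4.97e-06) and at least 64.1-fold in motor neuron cultures (log2 difference 6.94, adjusted p = 1.99e-06). Without ES replicate 3, the ES array with the highest Dlk1 level, these log2 differences were 6.81 and 7.56. Between the day 5 cultures the difference was -0.74 (adjusted p = 0.338).

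The second Dlk1 probe set, 1442724_at, separated the day 5 cultures. It read 2.26, 2.26 and 2.19 in Cdx2 and FGF cultures, 8.12, 7.42 and 6.86 in motor neuron cultures, against 2.26, 2.19 and 2.17 in ES cells. It was at least 11.1-fold lower in Cdx2 and FGF cultures than in motor neuron cultures (log2 difference -5.23, SE 0.29, adjusted p = 2.26e-06). This probe set passed the filter only through the motor neuron arrays, so it could only come out lower in that comparison. Which Dlk1 transcripts the 2 probe sets read was not determined.

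Meg3 had 11 probe sets, of which 4 were bright in all groups, 6 were dim and 1 lay between. The 4 probe sets 1439380_x_at, 1452183_a_at, 1426758_s_at and 1452905_at lay between 9.46 and 11.56 on all 9 arrays. The leading one, 1439380_x_at, read 10.90, 10.68 and 10.99 in Cdx2 and FGF cultures, 10.67, 10.39 and 10.56 in motor neuron cultures, against 11.31, 10.44 and 11.21 in ES cells. Neither kind of day 5 culture differed from ES cells by a call on any of these 4. Between the day 5 cultures their differences were 0.32, 0.36, 0.40 and 1.40, and the last, for 1452905_at, was called (SE 0.19, adjusted p = 0.000588).

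The 2 dim Meg3 probe sets that were tested moved the other way between the day 5 cultures. Probe set 1429256_at read 2.69, 2.63 and 2.69 in Cdx2 and FGF cultures, 6.33, 5.19 and 4.71 in motor neuron cultures, against 2.69, 2.17 and 2.69 in ES cells. It was lower in Cdx2 and FGF cultures than in motor neuron cultures by at least 2.66-fold (log2 difference -2.74, adjusted p = 0.000608), and like 1442724_at it was tested only through the motor neuron arrays. Probe set 1428764_at read 4.14 on each Cdx2 and FGF array. It read 6.27, 5.96 and 5.34 in motor neuron cultures, against 3.68, 3.34 and 2.46 in ES cells. The equal values on the 3 Cdx2 and FGF arrays may be a background level, so the fold is given as a bound. It was at least 3.29-fold lower in Cdx2 and FGF cultures than in motor neuron cultures (log2 difference -1.72, adjusted p = 0.00558). Against ES cells, Cdx2 and FGF cultures differed by 0.98 on it (adjusted p = 0.0306), which passed the size for a call without ES replicate 1 (1.24) or ES replicate 2 (1.07). For 1429256_at and the dim Dlk1 probe set, the filter itself fixed motor neuron cultures as the highest group.

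Probe set 1436713_s_at of Meg3 was the one between. Its levels were 9.57, 8.55 and 8.99 in Cdx2 and FGF cultures, 8.14, 7.75 and 7.85 in motor neuron cultures, against 5.31, 6.50 and 3.12 in ES cells. It was called higher in Cdx2 and FGF cultures than in ES cells (log2 difference 4.06, SE 0.72, adjusted p = 0.000704) and in motor neuron cultures than in ES cells (log2 difference 2.93, adjusted p = 0.00455). Without ES replicate 2 they were 4.82 and 3.69, and without ES replicate 3 they were 3.13 and 2.01. Between the day 5 cultures it differed by 1.13 (adjusted p = 0.292), which was called with only those 6 arrays in the fit (adjusted p = 0.0237) and without ES replicate 3 (adjusted p = 0.0451). Over all alternatives that adjusted p ran from 0.00781 to 0.657.

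**Figure D2:**
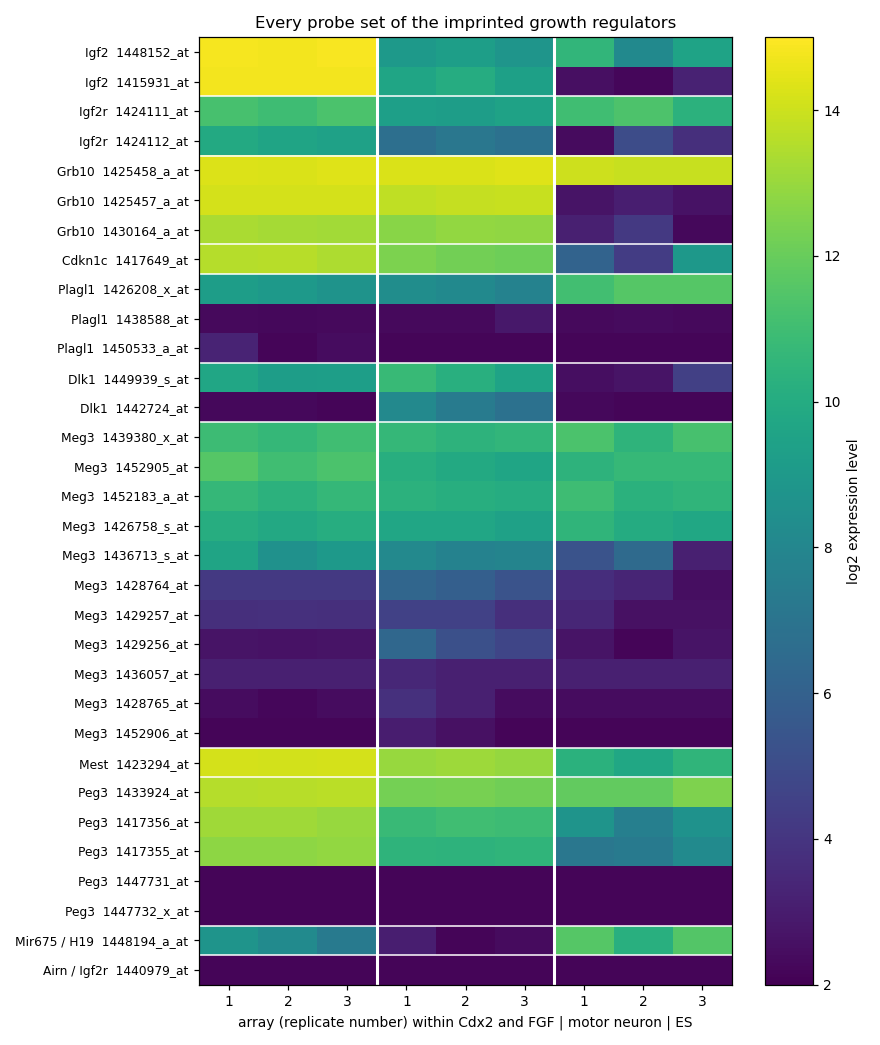
Log2 expression level (colour) of the 30 probe sets and of the 2 probe sets shared with another gene, in rows, on the 9 arrays, in columns grouped as Cdx2 and FGF, motor neuron and ES. The Grb10 rows differ in the ES columns, where 1 lies near 14 and the others at or below 4.15, and the Meg3 rows hold 4 bright ones, 6 dim ones and 1 between.

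Mest and Peg3, both expressed from the paternal copy, rose in Cdx2 and FGF cultures over motor neuron cultures. Mest encodes a protein with a hydrolase fold, and its loss in mice slows growth. Its probe set read 14.14, 14.12 and 14.16 in Cdx2 and FGF cultures, 13.02, 13.08 and 12.95 in motor neuron cultures, against 10.32, 9.75 and 10.52 in ES cells. The groups did not overlap, with ES cells lowest and Cdx2 and FGF cultures highest. Mest was 2.18-fold higher in Cdx2 and FGF cultures than in motor neuron cultures (log2 difference 1.12, SE 0.17, adjusted p = 0.00115), and 7.06-fold higher in motor neuron cultures than in ES cells (log2 difference 2.82, adjusted p = 5.16e-07).

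Peg3 encodes a large zinc finger protein. Its leading probe set, 1433924_at, read 13.56, 13.58 and 13.65 in Cdx2 and FGF cultures, 12.29, 12.34 and 12.18 in motor neuron cultures, against 11.90, 11.85 and 12.49 in ES cells. The Cdx2 and FGF arrays lay above the other 6, which overlapped. Peg3 was 2.51-fold higher in Cdx2 and FGF cultures than in motor neuron cultures on this probe set (log2 difference 1.33, SE 0.16, adjusted p = 0.000234). On 1417355_at and 1417356_at it was 5.15-fold and 4.59-fold higher (log2 differences 2.36 and 2.20, adjusted p = 0.000108 and 0.000271). These 2 also rose in motor neuron cultures over ES cells, by log2 differences of 2.91 and 2.59, whereas the leading probe set did not pass the test there (0.19, adjusted p = 0.291). The last 2 Peg3 probe sets, 1447731_at and 1447732_x_at, read 2.17 on every array.

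The window upstream of Peg3 is shown because it was the one among these genes with a match to GGGGCCCC, a motif bound by the protein of Plagl1. The match is in capitals, in the 250 bases before the RefSeq start site at chr7:6730420-6730669 of GRCm38.p6, on the minus strand.
Peg3 upstream window: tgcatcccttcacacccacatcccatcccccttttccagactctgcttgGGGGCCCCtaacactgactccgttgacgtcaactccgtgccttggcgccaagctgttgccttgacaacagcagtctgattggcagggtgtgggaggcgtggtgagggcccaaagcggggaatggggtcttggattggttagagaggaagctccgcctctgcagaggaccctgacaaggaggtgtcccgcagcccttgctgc
The motif, which reads alike on both strands, was in 0.889% of all windows and in 1 of the 15. Of the 10 genes, 8 had a window in the RefSeq table.

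The probe set that names Mir675 and H19 shared its order of groups with Plagl1: ES cells highest, Cdx2 and FGF cultures next and motor neuron cultures lowest. H19 is a non-coding RNA of the Igf2 cluster on chromosome 7, expressed from the maternal copy, and is the host transcript of miR-675. Probe set 1448194_a_at read 8.73, 8.24 and 7.38 in Cdx2 and FGF cultures, 3.09, 2.17 and 2.40 in motor neuron cultures, against 11.58, 10.22 and 11.53 in ES cells. All motor neuron arrays lay under 4, and the Cdx2 and FGF arrays lay between the other 2 groups. The probe set passed the filter through the other 6 arrays alone, so motor neuron cultures could only come out lowest. It was at least 17.3-fold higher in Cdx2 and FGF cultures than in motor neuron cultures (log2 difference 5.56, SE 0.47, adjusted p = 3.02e-05) and 7.98-fold lower than in ES cells (log2 difference -3.00, adjusted p = 0.000352). In motor neuron cultures it was at least 138-fold lower than in ES cells (log2 difference -8.56, adjusted p = 2.76e-07). The fibroblast markers given above were likewise lowest in motor neuron cultures. Their sum in Cdx2 and FGF cultures, 11.41 to 11.63, lay within the ES range, whereas this probe set was lower there than in ES cells. On ES arrays 1, 2 and 3 the sum was 10.54, 11.87 and 13.15, an order that this probe set did not share. The part of fibroblast RNA in the signal of this probe set was not tested.

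The mature sequences of miR-675 are shown because the array names the microRNA and its host on 1 probe set. RefSeq (GRCm38.p6) lists them on chromosome 7, and the seed, bases 2 to 8, is in capitals.
mmu-miR-675-5p: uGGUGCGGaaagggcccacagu
mmu-miR-675-3p: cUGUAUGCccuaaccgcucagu
The 2 arms do not share a seed, and the mature microRNA was not measured on these arrays.

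**Figure D3:**
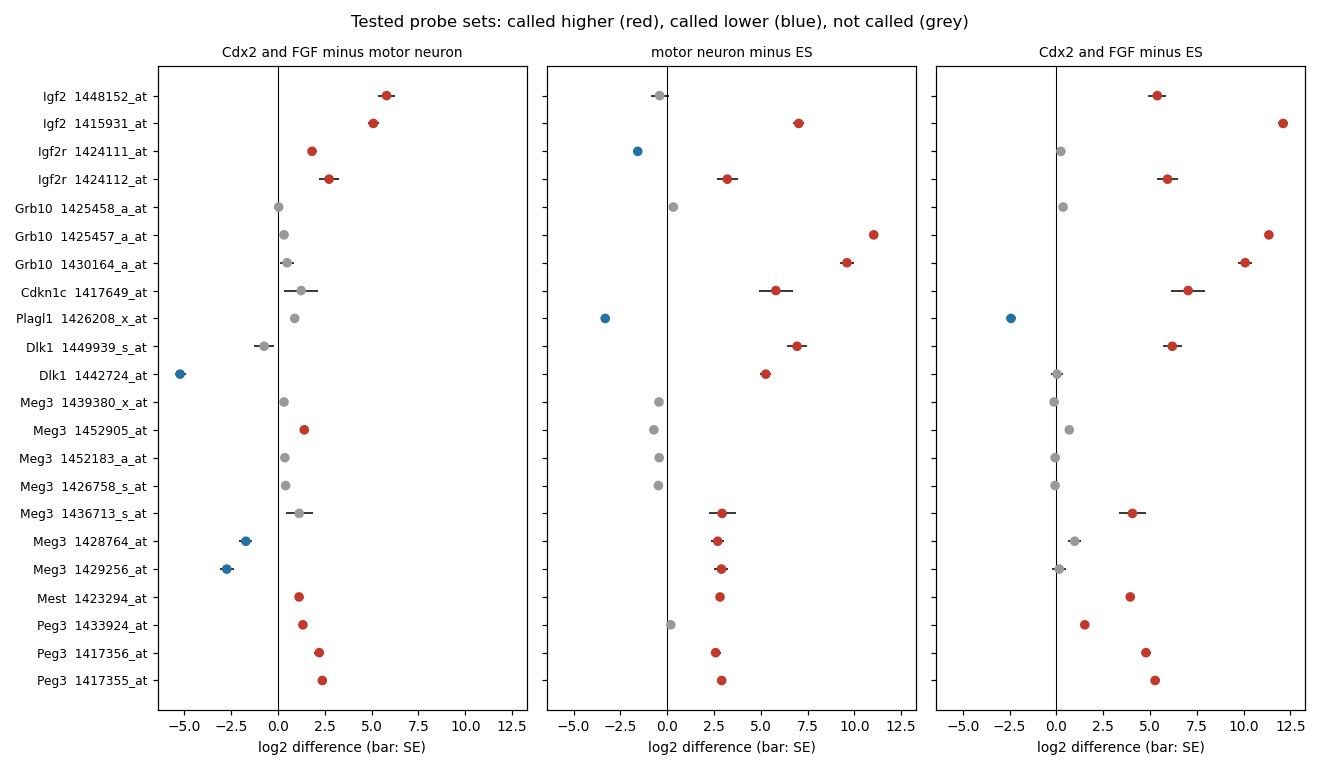
Log2 difference (horizontal axis, with its SE) of the 22 tested probe sets in the 3 comparisons. In Cdx2 and FGF minus motor neuron cultures both Igf2 probe sets lie over 5, and 1 Dlk1 probe set lies at -5.23 while the other is not called.

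By parental copy, counting 1 leading probe set a gene, 3 of the 5 genes expressed from the paternal copy were higher in Cdx2 and FGF cultures than in motor neuron cultures, namely Igf2, Mest and Peg3. Of the 4 tested genes expressed from the maternal copy 1, Igf2r, was higher, and 0 of either kind were lower in limma's test. Over all 10911 genes tested by their leading probe set, 11.1% were called higher and 8.55% lower. At limma's unadjusted p under 0.05, 5 of the 9 passed and were all higher. The share of all genes at that looser cut was not counted, so this number has no background beside it. For motor neuron cultures against ES cells, 2 of the 5 paternal genes were higher and 1 lower, and 1 of the 4 maternal genes was higher and 1 lower, against 25.9% higher and 30.7% lower of all genes. Grb10, listed as maternal, is expressed from the paternal copy in mouse neurons.

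Markers of other cells differed between the day 5 cultures as well. The summed log2 level of 13 mesoderm and mesenchyme markers was 14.38 to 14.45 in Cdx2 and FGF cultures, 7.92 to 8.09 in motor neuron cultures and 11.79 to 14.12 in ES cells. Of these, 9 had means over 4 in Cdx2 and FGF cultures, 2 in motor neuron cultures and 6 in ES cells, while Tbx6, Msgn1, Meox2 and Hand2 lay under 2.5 in all 3 groups. The 8 neuron markers summed to 13.02 to 13.19 in Cdx2 and FGF cultures, 16.03 to 16.46 in motor neuron cultures and 13.19 to 13.59 in ES cells. The brightest gene weighs most in such a sum, and in ES cells this was Stmn2, with a mean of 13.07. Tested gene by gene against ES cells, 5 of the 8 were above their ES level in Cdx2 and FGF cultures by a call. Stmn2 alone was below it by a call, 2 were not called, and the median log2 difference was 1.33. The sum of 11 endoderm markers was 11.79 to 12.06 in Cdx2 and FGF cultures, 9.16 to 9.96 in motor neuron cultures and 6.14 to 7.09 in ES cells. Of these, 3, 4 and 1 had means over 4 in the same order, and Gata4 lay under 2.5 in all 3 groups. The 9 trophoblast markers summed to 10.71 to 11.14, 8.13 to 9.16 and 13.51 to 14.36. Means were over 4 for 4, 2 and 3 of them, and Elf5, Plac1 and Tpbpa lay under 2.5 in all 3 groups. Both sums thus rest on a few genes. The part of these cell types in the levels of the imprinted genes was not tested, and in bulk cultures fewer cells of a type and less RNA per cell cannot be told apart.

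Other imprinted genes moved in both directions in Cdx2 and FGF cultures. Of 34 tested genes from a list of 50, 8 were higher and 4 lower than in motor neuron cultures, against 11.1% and 8.55% of all genes, and the median difference was 0.01 against 0.04. Asb4 was higher by at least 6.66-fold and Airn by at least 4.79-fold (adjusted p = 0.0024 and 1.17e-05). Airn, Zim1 and Gatm, all among the 8 higher genes, passed the filter through the Cdx2 and FGF arrays alone. They could only come out higher in that comparison. Nnat, a membrane protein gene of developing neurons, averaged 9.06 ± 0.30 in Cdx2 and FGF cultures and 11.31 ± 0.30 in motor neuron cultures (SD, n = 3 each; log2 difference -2.24, adjusted p = 0.000962). Ddc, an enzyme of monoamine synthesis that is imprinted in the heart, fell by 3.17 on the log2 scale (adjusted p = 1.28e-05). In motor neuron cultures against ES cells, 10 of the 34 were higher and 6 lower, against 25.9% and 30.7% of all genes, so that the share of higher genes was near the background. Among them were Peg12 (17.8-fold higher), Nnat (19.9-fold higher), Sfmbt2 (21.4-fold lower) and Phlda2, a brake on placental growth (at least 24.1-fold lower, its 3 motor neuron arrays sharing 1 value that may be background). Ascl2, also among the 6 lower genes, read 2.17 on every day 5 array. It was tested through the ES arrays alone and could only come out lower.

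Genes around the IGF ligand were tested from a list of 30, of which 20 passed the filter. In Cdx2 and FGF cultures 8 were higher and 1 lower than in motor neuron cultures, with a median difference of 0.46. The shares of all genes were 11.1% and 8.55%, and the median of all genes was 0.04. Igfbp5, a secreted IGF-binding protein, averaged 13.89 ± 0.10 in Cdx2 and FGF cultures and 9.76 ± 1.07 in motor neuron cultures (log2 difference 4.13, SE 0.81, adjusted p = 0.00481). Irs2, an adaptor of insulin and IGF receptors, was 8.54-fold higher, the transcription factor gene Foxo1 6.74-fold higher and Igfbp3 6.36-fold higher. The signalling receptor gene Igf1r averaged 12.06 ± 0.09 in Cdx2 and FGF cultures and 11.48 ± 0.11 in motor neuron cultures, a difference of 0.58 (adjusted p = 0.0271) that fell short of a call. Motor neuron cultures had higher levels than ES cells for 10 of the 20 and lower levels for 5, against 25.9% and 30.7% of all genes. Akt2, a kinase below these receptors, was at least 54.1-fold higher, Igfbp5 at least 32.5-fold higher, Igfbp7 at least 17-fold lower and Foxo1 16.8-fold lower. Igfbp7 read 2.17 on every day 5 array and was tested through the ES arrays alone, so it could only come out lower. In Cdx2 and FGF cultures 12 of the 20 were higher and 6 lower than in ES cells, against 25.4% and 27.2% of all genes.

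Of the closest relatives of Cdkn1c, Cdkn1b was called lower in Cdx2 and FGF cultures than in ES cells (-1.15 on the log2 scale, adjusted p = 0.00171), and Cdkn1a was called in no comparison. Cdkn1a, the p21 gene, averaged 11.85 ± 0.36 in Cdx2 and FGF cultures, 11.74 ± 0.24 in motor neuron cultures and 11.62 ± 0.19 in ES cells, and Cdkn1b, the p27 gene, 10.67 ± 0.22, 11.29 ± 0.31 and 11.83 ± 0.42 in the same order. Of 15 tested genes in this list, Cdx2 and FGF cultures had 2 above and 2 below motor neuron cultures. These shares, 13.3% each, were near the 11.1% and 8.55% of all genes. The kinase gene Cdk6 was 7.72-fold and the cyclin gene Ccnd3 2.69-fold higher, while the inhibitor genes Cdkn2c and Cdkn2d were 2.85-fold and 2.68-fold lower. Against ES cells, motor neuron cultures had 4 higher and 5 lower, shares near the 25.9% and 30.7% of all genes. Cdkn2d was 21.8-fold higher, the cyclin D2 gene Ccnd2 9.35-fold higher, the cyclin D1 gene Ccnd1 5.43-fold lower and Cdkn2c at least 4.77-fold higher.

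Most factors that keep or erase DNA methylation at imprints were lower in day 5 cultures than in ES cells. Of 19 tested genes, 14 were lower and 2 higher in motor neuron cultures than in ES cells, against 30.7% lower and 25.9% higher of all genes. Cdx2 and FGF cultures had 11 lower and 2 higher than ES cells, against 27.2% and 25.4%. Dnmt3l, a cofactor of DNA methyltransferases, and Dppa3, a factor of the early embryo, were at least 297-fold and 118-fold lower in motor neuron cultures. Both read 2.17 on every day 5 array and were tested through the ES arrays alone, so they could only count as lower, while Tet3 lay under 4 on all ES arrays and could only count as higher. Tet1, an enzyme that oxidises methylcytosine, was 33.1-fold lower and its relative Tet3 at least 27.9-fold higher. Zfp57, which binds methylated imprint control regions, averaged 8.88 ± 0.31 in Cdx2 and FGF cultures, 9.08 ± 0.35 in motor neuron cultures and 12.05 ± 0.21 in ES cells. Between the day 5 cultures limma called 0 of the 19, and 10 had an unadjusted p under 0.05, with a median difference of 0.19. The share of all genes at that looser cut was not counted.

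**Figure D4:**
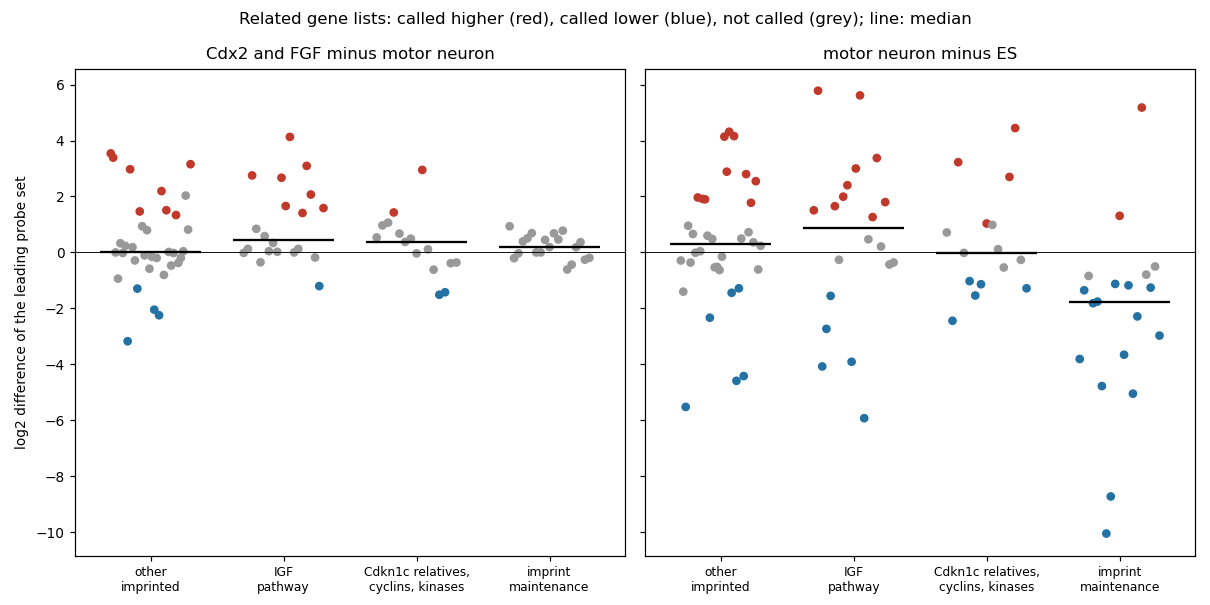
Log2 difference (vertical axis) of the leading probe set of each tested gene in 4 related lists, for Cdx2 and FGF minus motor neuron cultures and for motor neuron cultures minus ES cells. Points are genes, the line is the median of the list, and the imprint maintenance list holds 0 called genes on the left and 16 on the right.

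The patterns most like those of 5 members over the 9 arrays were looked up among 10555 other genes by Pearson's r, as a description. The arrays form 3 groups, so a high r says mainly that the order and spacing of the groups were alike. For Igf2 the closest were Myh7, Cxcl12, Ramp2 and Tmem132c (r = 0.985 to 0.992), with Myh7 averaging 9.79 in Cdx2 and FGF cultures, 3.96 in motor neuron cultures and 4.56 in ES cells. For the Mir675 and H19 probe set they were Anxa6, Syde2, Zic5 and Bmp4 (r = 0.989 to 0.994). Bmp4 averaged 7.76, 2.20 and 9.85 in the same order. For Dlk1 they were Traf4, Sct, Vps4b and Dbn1 (r = 0.994 to 0.997), and for Cdkn1c Stub1, Ptar1, Vstm2b and Sys1 (r = 0.995 to 0.996). Meg3, which moved little on its leading probe set, had lower values, 0.899 to 0.921, with Prdm2, Rhoc, Kpna2 and Uxs1.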

How the data were processed

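A NuGEN Ovation kit amplified the RNA, per the labels' protocols. The submitters' processing notes list GCRMA and limma. The table deposited by the authors holds log2 levels, 1 per probe set and array, from 2.17 to 16.12. Their log base was inferred from that range and from GCRMA's usual output. Probe sets were named from the platform annotation: 34958 had 1 symbol, 932 several and 9211 none, and the Entrez identifiers of all 30 member probe sets matched GRCm38.p6.

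One mean per group was estimated in limma 3.58.1 under R 4.3.3 (lmFit, then eBayes with trend; 9 arrays, 6 residual degrees of freedom). The 64 control probe sets were left out, and Benjamini-Hochberg adjustment covered the 21523 probe sets tested. In simulated data with 200 probe sets changed by 2 on the log2 scale, the fit recovered 78.5%, with 5 false calls. The simulation gave all groups the same SD for a probe set, unlike these arrays, where ES arrays spread more. Members and lists were chosen with earlier results of these data known. All member probe sets are described. In other lists, up to 4 called genes are named, those with the largest difference after raising values under 4 to 4. Genes of interest were also named after their values were seen (Igf1r, Zfp57, Cdkn1a, Cdkn1b). Zim1, Gatm and Ascl2 are named for how they passed the filter. Alternatives changed normalization, filter, floor, variance prior, weights, unit of test, arrays fitted and replicate block. The number of arrays limits the precision.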

Additional observations from a re-analysis of the deposited data

How the results depend on the processing

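Each of the 3 comparisons had 442 values of single member probe sets under the alternatives. Of these, 440 kept their direction and side of the threshold in motor neuron cultures against ES cells, 430 in Cdx2 and FGF cultures against ES cells, and 432 in Cdx2 and FGF against motor neuron cultures. Directions turned in 12 values, and none of the 12 was called; the causes were not tested. In motor neuron cultures against ES cells, Igf2 1448152_at ran over -1.03 to 0.15 as each array was left out. In Cdx2 and FGF against motor neuron cultures, Grb10 1425458_a_at turned with quantile normalization (-0.00083) and median centring (-0.071). In Cdx2 and FGF cultures against ES cells, Meg3 1429256_at (-0.059) and Dlk1 1442724_at (-0.18) turned with median centring. Leaving out each array there gave -0.036 to 0.46 for Igf2r 1424111_at, -0.24 to 0.14 for Meg3 1426758_s_at, -0.021 to 0.24 for 1429256_at, -0.40 to 0.037 for 1439380_x_at and -0.20 to 0.11 for 1452183_a_at. Igf2 1448152_at passed as lower in motor neuron cultures than in ES cells without ES replicate 2 (-1.03, adjusted p = 0.00861). As deposited, the median over all probe sets was 0.101 in motor neuron cultures against ES cells, 0.043 in Cdx2 and FGF against motor neuron cultures, while Cdx2 and FGF cultures against ES cells had 0.143. Centring each array made these -0.00872, -0.0603 and -0.0695.

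With 1 probe set per gene, 10911 genes were tested, 9 of them members. Called higher and lower were then 2826 and 3346 genes, 3 members among the higher, in motor neuron cultures against ES cells. The counts were 1220 and 939, with 4 and 0 members, in Cdx2 and FGF against motor neuron cultures. For Cdx2 and FGF cultures against ES cells they were 2774 and 2971, with 5 members among the higher. Averaging each gene's probe sets left 10479 genes, 9 of them members. In the same order, it gave 2933 and 2518 (6 and 1 members), 1058 and 821 (4 and 1), and 2929 and 2102 (7 and 0). Without x_at and s_at probe sets, 17 member probe sets were tested. Of these, 1 was lower in motor neuron cultures than in ES cells and 0 in Cdx2 and FGF cultures than in ES cells, since the Plagl1 probe set left the table. A filter at 6 left 1 of 20 tested member probe sets lower in Cdx2 and FGF than in motor neuron cultures. No share of all probe sets is set beside these last counts. Leaving out 1 array at a time gave 9 to 11 of the 22 member probe sets higher and 3 lower in that comparison. Of all 21523 probe sets, 1844 to 2496 were then higher and 1563 to 1950 lower. Against ES cells it gave 12 to 13 higher and 1 lower for Cdx2 and FGF cultures, with 13 higher and 2 to 3 lower for motor neuron cultures. Over all probe sets, 6428 to 6759 were higher and 5103 to 5367 lower for Cdx2 and FGF cultures. For motor neuron cultures these were 6572 to 6877 and 5715 to 6041.

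The titles number the replicates without saying whether equal numbers pair the arrays. Same-numbered arrays of 2 groups deviated together with correlations of -0.0281 to 0.106. Differently numbered arrays were not compared, so these values cannot decide it. With the replicate number as a block, Cdx2 and FGF cultures had 2313 probe sets above and 1815 below motor neuron cultures (9 and 3 members), and no count moved by over 1.5 times.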
